A study of Micropterus salmoides with 45 samples.

Results

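The 4 rows described here are msa-miR-143-3p, msa-miR-143-5p, msa-miR-145-3p and msa-miR-199-5p (written below without the species prefix), 4 of the 266 miRNAs listed in small RNA libraries of largemouth bass liver (Micropterus salmoides, a freshwater sport and farm fish). They were picked by name, as miRNAs known from smooth muscle and fibroblasts, with earlier results of these data known. The partner arms miR-145-5p and miR-199-3p are listed too but are not among the 4. The study held 6-month-old fish, fasted and kept at 20 °C, at 3 oxygen levels, and each level had 3 tanks. Severe hypoxia (SHG) meant 1.2 mg/L dissolved oxygen, moderate hypoxia (MHG) 3.0 mg/L and control (CG) 7.0 mg/L. Livers were taken at 0, 4, 8, 12 and 24 h. The 0 h samples date from the moment the set oxygen level was reached, within 2 h of starting the nitrogen, so 0 h in the hypoxic groups is not an untreated state. Each of the 15 groups has 3 libraries, 45 in all. The labels do not say which tank or how many fish a library holds, so p-values measure only the spread between these libraries.

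miRNAs are short RNAs that guide the silencing of matching messenger RNAs, and each precursor hairpin can release an arm from its 5′ side (5p) and an arm from its 3′ side (3p). In vertebrates miR-143 and miR-145 are neighbours made from a shared primary transcript. They are abundant in smooth muscle and pericytes, where in mice they keep the contractile state. miR-199 is made together with miR-214 from a transcript antisense to a dynamin gene and is typical of mesenchymal cells. In mammalian liver these miRNAs are mostly assigned to stellate cells, portal fibroblasts and vessel walls, and not to hepatocytes. In rodent heart muscle cells miR-199a-5p is known to repress the hypoxia factor Hif-1α.

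The deposited values are taken as reads scaled to a common library total (rpm). Over single libraries the total of the 266 listed values ran from 300084 to 961089 rpm, with the lowest group mean in control at 24 h (333215 rpm) and the highest in moderate hypoxia at 12 h (942465 rpm). Because the sum differs between groups, every difference was also computed after rescaling each library to its listed total, and is then called rescaled. The spacing of low values implies 1.01 to 5.57 mega-reads per library. Within a group, 86.2% of the nonzero triplets contained 1 entry equal to the average of the remaining pair, to within 0.1% or the last decimal. Such a value was set aside, which leaves 2 measured values in most groups. If the replaced value was the most distant one, the spread is understated and p-values are too small. Listed totals, means and ranks over all 45 libraries and the sums of marker lists keep the averaged values. In livers, as in any whole tissue, fewer cells of a type and less miRNA per cell cannot be told apart.

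All 4 rows were above 0 in all 45 libraries. Averaged over them, miR-143-3p stood at 11558 rpm and miR-199-5p at 7024 rpm, ranks 13 and 20 of 266. miR-145-3p at 79.7 rpm and miR-143-5p at 20.7 rpm ranked 126 and 156. These are rpm, not levels per length. The lowest miR-143-5p value corresponds to about 5.00 implied reads and the highest to 167, so counting error is largest for this arm.

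miR-143-3p, the abundant arm of miR-143, had the smallest change over the day as deposited and was not lowest at 24 h. In severe hypoxia its measured values, in rpm, were 8325 and 6979 at 0 h, 13521 and 15621 at 4 h, 10471 and 9560 at 8 h, 12988 and 21338 at 12 h, and 16360, 17529 and 10185 at 24 h. In moderate hypoxia they were, in rpm, 8926 and 10983 at 0 h, 8239 and 3583 at 4 h, 9651 and 11254 at 8 h, 15368 and 17366 at 12 h, and 7501 and 7531 at 24 h. In control they were, in rpm, 7149 and 5044 at 0 h, 15176 and 10716 at 4 h, 11399 and 16064 at 8 h, 10719 and 13587 at 12 h, and 18417 and 9879 at 24 h. Severe hypoxia and control were lowest at 0 h, moderate hypoxia at 4 h. Ordered by group mean, severe hypoxia at 12 h came first and moderate hypoxia at 4 h last, 2.90-fold apart. The ranges of 12 of the 14 neighbours in that order overlapped.

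miR-143-5p, the scarce arm of the same hairpin, ran differently. In severe hypoxia it measured, in rpm, 21.2 and 15.9 at 0 h, 44.0 and 34.4 at 4 h, 22.0 and 24.9 at 8 h, 16.7 and 25.9 at 12 h, and 8.76 and 9.38 at 24 h. In moderate hypoxia it measured, in rpm, 37.6 and 31.4 at 0 h, 20.3 and 20.7 at 4 h, 19.3 and 21.1 at 8 h, 23.3 and 22.9 at 12 h, and 4.41 and 4.36 at 24 h. In control it measured, in rpm, 23.9 and 11.3 at 0 h, 28.5 and 32.9 at 4 h, 30.4 and 24.8 at 8 h, 14.2 and 15.1 at 12 h, and 4.93 and 6.43 at 24 h. At every oxygen level the 24 h values lay below those of all other hours. The 3 groups of 24 h were the 3 lowest of the 15, and their ranges did not overlap. The highest group mean, severe hypoxia at 4 h, was 8.93-fold the lowest, moderate hypoxia at 24 h, and 11 of 14 neighbours overlapped.

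miR-145-3p is the scarcer arm of miR-145 here. In severe hypoxia it measured, in rpm, 96.9 and 91.9 at 0 h, 126 and 136 at 4 h, 108 and 91.3 at 8 h, 84.6 and 125 at 12 h, and 40.6 and 33.5 at 24 h. In moderate hypoxia it measured, in rpm, 136 and 120.1 at 0 h, 73.0 and 38.4 at 4 h, 71.4 and 61.0 at 8 h, 47.0 and 69.5 at 12 h, and 14.3 and 19.2 at 24 h. In control it measured, in rpm, 76.6 and 76.8 at 0 h, 149 and 151 at 4 h, 128 and 73.3 at 8 h, 46.2 and 41.5 at 12 h, and 26.6 and 37.7 at 24 h. It too was lowest at 24 h at each oxygen level. In control both 12 h values lay below all earlier ones, whereas in severe hypoxia the 12 h values, 84.6 and 125 rpm, spanned most of the range of the earlier hours. Control at 4 h and moderate hypoxia at 24 h were the ends of the order, 8.96-fold apart, and 9 of 14 neighbours overlapped.

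miR-199-5p was abundant and had the widest swing of the 4. In severe hypoxia it measured, in rpm, 7934 and 10350.4 at 0 h, 9952 and 10331 at 4 h, 7874 and 8629 at 8 h, 5622 and 6409.7 at 12 h, and 2898 and 3324 at 24 h. In moderate hypoxia it measured, in rpm, 15703 and 10305 at 0 h, 7464 and 8578 at 4 h, 5039 and 4870.2 at 8 h, 5357 and 6726 at 12 h, and 1395 and 1640.4 at 24 h. In control it measured, in rpm, 9487, 10729 and 8839 at 0 h, 9072 and 8343 at 4 h, 12970 and 8622 at 8 h, 4431 and 4934 at 12 h, and 1393 and 1187 at 24 h. Every 24 h value was below every value of the earlier hours, and severe hypoxia was the highest of the 3 groups of 24 h without overlap. Moderate hypoxia at 0 h stood 10.1-fold above control at 24 h, the ends of the order, and 9 of 14 neighbours overlapped.

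**Figure D1:**
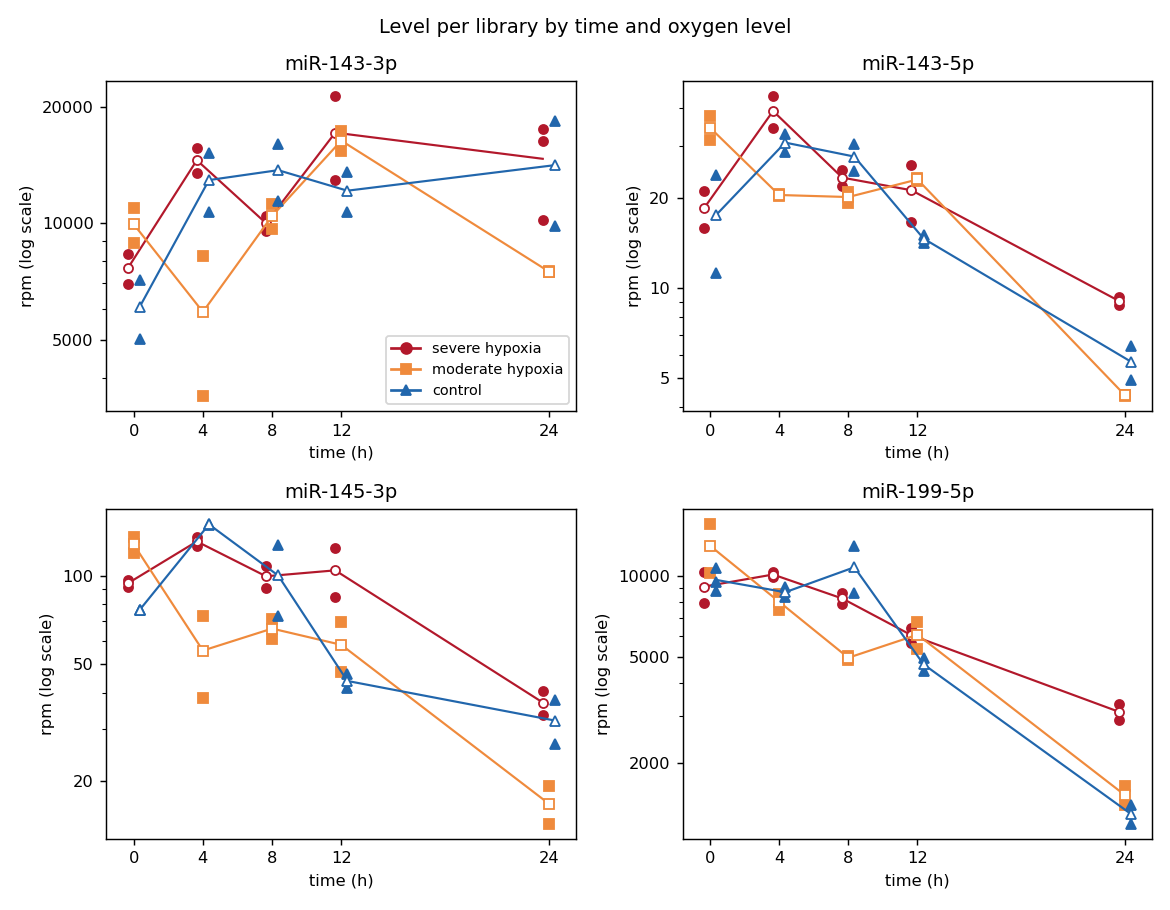
Level of the 4 miRNAs in each library (rpm, log axis) against time in h, for severe hypoxia, moderate hypoxia and control. Filled points are measured values, open points are values equal to the mean of the other 2, and lines join the means of the measured values. miR-143-5p, miR-145-3p and miR-199-5p end at their lowest means at 24 h at each oxygen level, whereas miR-143-3p does not.

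The 24 h means can be set against the 0 h means as a description. miR-199-5p stood at 34.0% of its 0 h mean in severe hypoxia, 11.7% in moderate hypoxia and 13.3% in control. miR-145-3p stood at 39.3%, 13.1% and 41.9%, in the same order of groups, and miR-143-5p at 49.0%, 12.7% and 32.3%. miR-143-3p stood at 192% in severe hypoxia, 75.5% in moderate hypoxia and 232% in control. After rescaling, miR-199-5p stood at 35.3%, 21.8% and 25.9% of 0 h and miR-143-3p at 203%, 134% and 418%. The 5p arm of miR-143 then stood at 51.6%, 23.2% and 61.1%, and miR-145-3p at 41.5%, 24.3% and 78.5%, with control lowest at 12 h for miR-145-3p.

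Change over the 5 times was tested within each oxygen level by an F-test in limma (a linear model that moderates the variance of each miRNA with that of all others), with Benjamini-Hochberg adjustment over all miRNAs tested and calls at an adjusted p under 0.05. All 4 rows were called at each oxygen level, where 63.3% of all miRNAs were called in severe hypoxia, 85% in moderate hypoxia and 78.4% in control. Against such backgrounds the count of 4 of 4 is not a result about these rows. The sizes differed more. On the log2(rpm + 1) scale the highest and lowest hours of miR-199-5p were 1.71 apart in severe hypoxia (adjusted p = 8.3e-06), 3.07 in moderate hypoxia (3.4e-09) and 3.04 in control (1.4e-09).

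For miR-145-3p the same log2 ranges were 1.80 in severe hypoxia (limma adjusted p = 0.00052), 2.88 in moderate hypoxia (2.0e-06) and 2.21 in control (1.6e-05). For miR-143-5p they were 1.99 (0.00017), 2.71 (8.9e-07) and 2.25 (5.0e-06), in the same order. As deposited miR-143-3p had the smallest ranges, 1.13 in severe hypoxia (0.0401), 1.59 in moderate hypoxia (0.0047) and 1.17 in control (0.0206). Its calls were also the frail ones. After rescaling, those in severe and moderate hypoxia ended (adjusted p = 0.0688 and 0.11), while that in control remained, with a range of 2.00 (0.00092). Rescaled, miR-143-3p had the largest range of the 4 in control, beside 1.97 for miR-199-5p, 1.82 for miR-145-3p and 1.17 for miR-143-5p, and still the smallest in severe (0.98) and moderate hypoxia (0.91). In severe hypoxia leaving out any 1 of 9 of the 15 libraries ended the call, with an adjusted p of up to 0.167, and these were libraries 1 and 3 at 0, 4 and 8 h, library 3 at 12 h and libraries 1 and 2 at 24 h. In control the call ended without library 3 at 0 h (0.311). The calls of the other 3 rows held without any single library and after rescaling.

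Severe hypoxia differed from control in 1 row at 12 h and in 1 row at 24 h. At 12 h miR-145-3p, at 84.6 and 125 rpm in severe hypoxia against 46.2 and 41.5 rpm in control, was higher by 1.21 on the log2 scale (SE 0.30, limma adjusted p = 0.0037). The groups did not overlap, and the rescaled difference was 1.45 (0.00061). Without library 2 of severe hypoxia at 12 h it was 0.93 and no longer called (0.0678). Of all miRNAs tested, 32.4% were called at 12 h, so 1 of 4 is near the background. miR-143-5p (0.48, adjusted p = 0.208), miR-143-3p (0.46, 0.339) and miR-199-5p (0.36, 0.217) were not called at 12 h. Scaled by the median of ratios, an alternative scaling that matches libraries on their typical miRNA, miR-143-5p (0.75, 0.0284) and miR-199-5p (0.65, 0.0215) were called as well.

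At 24 h miR-199-5p, at 2898 and 3324 rpm in severe hypoxia against 1393 and 1187 rpm in control, was higher by 1.27 (SE 0.22, limma adjusted p = 0.00021). All libraries of severe hypoxia lay above those of control, and the call held without any 1 of the 6 libraries. At that hour 33.8% of all miRNAs were called and their median difference was 0.45. Relative to that shift miR-199-5p was less far up, and rescaled to the listed total it was 0.56 higher and not called (0.0725), whereas scaled by the median of ratios it was 0.76 higher and called (0.0114). The other 3 rows were not called, with miR-143-5p at 0.60 (0.0963), miR-145-3p at 0.21 (0.591) and miR-143-3p at 0.08 (0.851). The rescaled values of miR-145-3p and miR-143-3p were -0.47 and -0.53, so their direction at 24 h depends on the scaling.

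At 0, 4 and 8 h none of the 4 rows was called between severe hypoxia and control, where 7.8%, 6.33% and 23.6% of all miRNAs were called, and none had an unadjusted p under 0.05, a threshold passed by 22%, 18.1% and 32.9% of all miRNAs. The differences lay between -0.44 for miR-143-3p at 8 h and 0.34 for miR-143-3p at 0 h. Averaged over the 5 times, miR-199-5p was higher by 0.28 (SE 0.09, limma adjusted p = 0.0320), 1 of 4 rows where 26.4% of all miRNAs were called. That average rests on 24 h: without the 24 h groups it was 0.03. Leaving out single libraries ended the call in 10 of 30 cases, with an adjusted p of up to 0.0890, namely library 3 of severe hypoxia at 0, 4, 8 and 12 h and library 2 at 24 h, and in control library 3 at 0, 4 and 24 h and library 2 at 8 and 12 h. With the group means as the observations the adjusted p was 0.982.

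Moderate hypoxia against control gave calls in both directions. At 0 h miR-143-5p, at 37.6 and 31.4 rpm in moderate hypoxia against 23.9 and 11.3 rpm in control, was higher by 1.02 (SE 0.28, limma adjusted p = 0.0159), and 17.1% of all miRNAs were called. The groups did not overlap and the rescaled difference was 0.97 (0.0135). The call ended without library 3 of control (0.51, 0.246), without library 1 of moderate hypoxia (0.89, 0.0863), without its library 2 (1.14, 0.0562), and when scaled by the median of ratios (0.64, 0.0986). The other 3 rows, 0.40 to 0.73 higher, were not called.

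At 4 h both miR-143-3p and miR-145-3p were lower in moderate hypoxia. miR-145-3p, at 73.0 and 38.4 rpm in moderate hypoxia against 149 and 151 rpm in control, differed by -1.48 (SE 0.30, limma adjusted p = 0.00085). miR-143-3p, at 8239 and 3583 rpm in moderate hypoxia against 15176 and 10716 rpm in control, differed by -1.23 (SE 0.36, adjusted p = 0.0097). Neither overlapped between groups. miR-143-5p (-0.56, 0.122) and miR-199-5p (-0.12, 0.698) were not called.

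The median of all miRNAs was itself -0.51 in that comparison and 38.4% were called. Rescaled, miR-145-3p differed by -0.76 (limma adjusted p = 0.0701) and miR-143-3p by -0.50 (0.294), and neither was called. miR-143-3p also lost its call without library 2 of moderate hypoxia at 4 h (-0.63, 0.198), where it had its lowest value of all, or without library 1 of control (-0.98, 0.0929).

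At 8 h miR-199-5p, at 5039 and 4870.2 rpm in moderate hypoxia against 12970 and 8622 rpm in control, differed by -1.09 (SE 0.22, limma adjusted p = 0.000805). The other 3 rows were not called (-0.38 to -0.54). The median of all miRNAs was -0.56 and 34.4% were called. Rescaled, miR-199-5p differed by -0.28 (0.531), and the other 3 rows turned to between 0.26 and 0.45, all uncalled. At 12 h no row was called (0.36 to 0.62), and 3.21% of all miRNAs were. At an unadjusted p under 0.05 limma gave 1 of the 4, miR-143-5p, beside 19.3% of all miRNAs.

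At 24 h miR-145-3p, at 14.3 and 19.2 rpm in moderate hypoxia against 26.6 and 37.7 rpm in control, was lower by -0.90 (SE 0.30, limma adjusted p = 0.0413), where 20.2% of all miRNAs were called. Rescaled it differed by -0.99 (0.0142), and miR-143-3p, not called as deposited (-0.84, 0.0966), was called at -0.91 (0.0457). The miR-145-3p call ended without any of 4 libraries, namely libraries 1 and 2 of moderate hypoxia and libraries 1 and 3 of control, with an adjusted p of up to 0.239. Averaged over times, miR-145-3p was lower in moderate hypoxia by -0.36 (SE 0.14, adjusted p = 0.0408), 1 of 4 rows where 38.1% of all miRNAs were called. Rescaled this was -0.14 (0.433), and 12 of 30 single libraries left out ended it, with an adjusted p of up to 0.112. These were library 2 of moderate hypoxia at each of the 5 hours, and in control libraries 2 and 3 at 0 h, 1 and 2 at 4 h, 1 at 8 h, 2 at 12 h and 3 at 24 h.

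**Figure D2:**
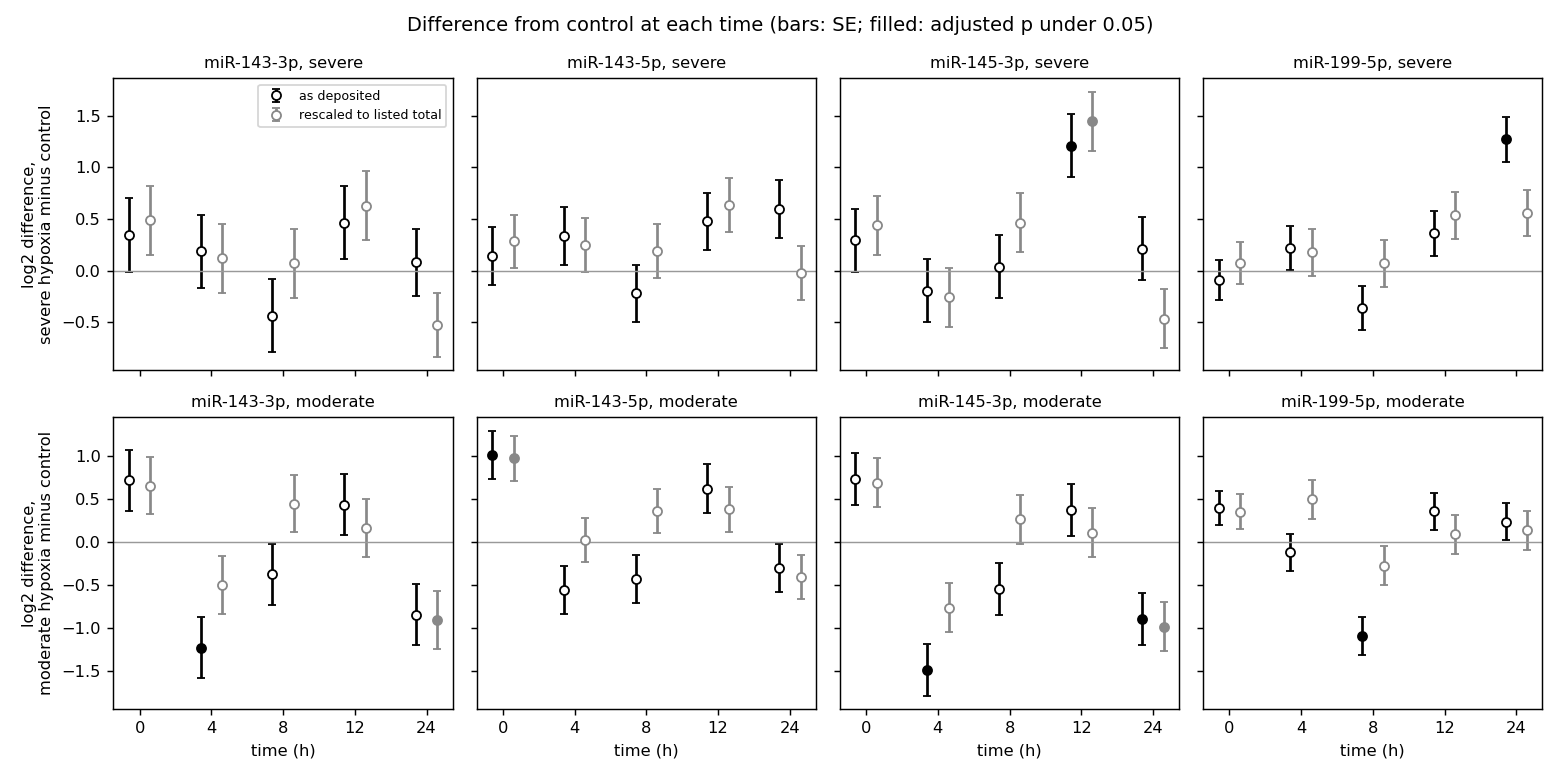
Difference from control in log2(rpm + 1) at each time, severe hypoxia above and moderate hypoxia below, with bars for the SE of the fit. Black points use values as deposited and grey points values rescaled to the listed total, and filled points passed an adjusted p of 0.05. The miR-145-3p difference at 12 h in severe hypoxia is filled on both scales, whereas the miR-199-5p differences at 24 h in severe hypoxia and at 8 h in moderate hypoxia are filled as deposited only.

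Between the hypoxic levels, most calls fell at 4 and 24 h and followed the scaling. At 4 h severe hypoxia was above moderate hypoxia in miR-143-3p (1.42, limma adjusted p = 0.0032), miR-145-3p (1.29, 0.0020) and miR-143-5p (0.89, 0.0169), 3 of 4 rows where 31.1% of all miRNAs were called and the median was 0.41. At 24 h all 4 rows were called higher, by 0.90 to 1.11, where 32.2% were called and the median was again 0.41. After rescaling none of these 7 calls remained, and the 24 h differences were 0.38 to 0.52. At 4 h, library 2 of moderate hypoxia carried 2 of the calls: without it miR-143-3p was at 0.82 (0.112) and miR-145-3p at 0.84 (0.0701). The miR-143-5p call ended without library 1 of moderate hypoxia (0.0653) or library 2 of severe hypoxia (0.139). At 24 h the miR-199-5p call held without any 1 of the 6 libraries. The miR-145-3p call ended without library 2 of moderate hypoxia (0.0778) or library 1 of severe hypoxia (0.0624). The calls of both miR-143 arms ended without library 1 or 2 of severe hypoxia or library 1 of moderate hypoxia, and without library 2 (3p arm) or 3 (5p arm) of moderate hypoxia, with adjusted p up to 0.123 for the 3p arm and 0.0858 for the 5p arm. At 0 h miR-143-5p was lower in severe hypoxia by -0.87 (0.0288, 23.6% of all miRNAs called) and at 8 h miR-199-5p was higher by 0.73 (0.0342, 11.2% called). Neither held after rescaling. The first also ended without library 3 of severe hypoxia (0.192) or libraries 1 (0.146) and 2 (0.0575) of moderate hypoxia, and the second without libraries 1 and 3 of severe or 1 and 2 of moderate hypoxia, with an adjusted p of up to 0.145.

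At 12 h miR-145-3p was higher in severe than in moderate hypoxia by 0.83 (limma adjusted p = 0.0378), where 37.3% of all miRNAs were called, and by 1.34 rescaled (0.0017). The deposited call ended without library 2 of severe hypoxia (0.287) or library 2 of moderate hypoxia (0.285). As a mean over times miR-145-3p was higher by 0.68 (0.0014) and miR-199-5p by 0.32 (0.0174), where 28.4% of all miRNAs were called, and rescaling kept miR-145-3p (0.46, 0.0138) and not miR-199-5p (0.12, 0.409). Both calls held without any single library. With group means as observations limma called none of the 4 rows in any of the 3 means over times.

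Whether the difference between oxygen levels depended on the hour was tested by an interaction F-test. All 4 rows were called, with limma adjusted p of 0.0110 for miR-143-3p, 0.00301 for miR-143-5p, 0.00145 for miR-145-3p and 0.000198 for miR-199-5p, but so were 87.5% of all miRNAs. Rescaled, miR-145-3p alone of the 4 kept its call (0.0024), with miR-143-5p at 0.0605, miR-143-3p at 0.0610 and miR-199-5p at 0.128. Scaled by the median of ratios, miR-145-3p (0.0071) and miR-199-5p (0.0280) were called.

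Within a library, the ratio of the arms of 1 hairpin does not depend on the scaling, apart from the 1 rpm added to each arm before the test. The 3p arm of miR-143 was far above the 5p arm everywhere, and the ratio was highest at 24 h at all 3 oxygen levels. Over libraries with both arms measured, 1 or 2 a group, the mean ratio in severe hypoxia was 417 at 0 h, 454 at 4 h, 430 at 8 h, 824 at 12 h and 1868 at 24 h. In moderate hypoxia it was 285, 405, 499.3, 757 and 1701 at the same hours, and in control 374, 532, 374.96, 826 and 1536. The mean ratio at 24 h was thus 4.48-fold that at 0 h in severe hypoxia, 5.97-fold in moderate hypoxia and 4.11-fold in control. The control value rests on 1 library at 24 h, and the moderate hypoxia value on 1 library at 0 h and 1 at 24 h. By the ratio of group means, whose arms come partly from different libraries, the folds were 3.92 in severe hypoxia, 5.94 in moderate hypoxia and 7.18 in control, so the order of the oxygen levels is not settled.

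The log2 ratio of the miR-143 arms changed over time at each oxygen level, by 2.09 between its extreme hours in severe hypoxia (limma adjusted p over hairpins = 0.00064), 2.33 in moderate hypoxia (0.0029) and 1.95 in control (0.0037). The background was high here too: the arm ratio was called over time in 55.2% of hairpins in severe hypoxia, 39.3% in moderate hypoxia and 50.8% in control. No library that could be left out ended these calls, but the only library of a group with both arms measured could not be left out. That applies to all 5 groups of moderate hypoxia, so its call was not checked this way, and to severe hypoxia at 4 and 12 h and control at 4, 8 and 24 h. An interaction with oxygen was not called (0.69), and neither severe (0.11, SE 0.13, adjusted p = 0.536) nor moderate hypoxia (-0.07, SE 0.14, 0.769) was called against control as a mean over times. These values do not show that the ratio was equal. At 24 h the 5p arm stood at 4.36 to 9.38 rpm, so the ratio there rests on few reads of that arm.

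The arms of miR-199 set severe hypoxia apart from control at 12 and 24 h. With both arms measured, the ratio of the 3p arm to the 5p arm in severe hypoxia averaged 1.40 at 0 h, 2.32 at 4 h, 2.29 at 8 h, 1.80 at 12 h and 3.50 at 24 h. In moderate hypoxia the mean ratio was 1.74, 2.86, 2.85, 5.34 and 7.73 at the same hours. In control it was 1.63, 2.32, 1.70, 4.78 and 10.3. The values of severe hypoxia at 4 and 24 h, moderate hypoxia at 4 and 8 h and control at 24 h rest on 1 library each. In moderate hypoxia at 4 h miR-199-3p measured 2767 and 24574 rpm. The ratio there ran from 0.345 to 2.86 over the 3 deposited libraries, and the ratio of group means was 1.70. At 12 h the single ratios were 1.60 and 2.00 in severe hypoxia, 4.67 and 6.01 in moderate hypoxia and 4.34 and 5.21 in control. Severe hypoxia thus lay below both other groups with no overlap.

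Against control the log2 ratio of the miR-199 arms was lower in severe hypoxia by -1.41 at 12 h (SE 0.25, limma adjusted p = 0.00073), by -1.56 at 24 h (SE 0.35, 0.0059) and by -0.55 as a mean over times (SE 0.13, 0.0059). The share of hairpins called was 37.5% at 12 h, 23.2% at 24 h and 28.3% for the mean. Leaving out single libraries did not end the 12 h call, nor the call of the mean in the 27 of 30 cases that could be fitted. Moderate hypoxia was not called against control at 24 h (-0.44, 0.313, 26.3% of hairpins called) or as a mean (0.18, 0.359, 15.4% called). At 24 h both severe hypoxia and control have 1 library with both arms measured, so the 24 h call compares 1 library with 1, its spread is borrowed from the other groups, and it could not be checked by leaving a library out.

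The miR-199 ratio changed over time in severe hypoxia (range 1.33, limma adjusted p = 0.0175), moderate hypoxia (2.13, 9.9e-05) and control (2.66, 1.8e-05). The severe hypoxia call ended without library 3 at 0 h (0.0702). The interaction with oxygen was called (0.0120), as in 41.7% of hairpins. The 3p arm itself was not called between severe hypoxia and control at any hour, with -1.05 at 12 h (adjusted p = 0.163) and -0.13 at 24 h (0.862). Its spread was larger than that of the 5p arm, with an SE of 0.55 at both hours. Names in the files give no copy letter for miR-143, miR-145 or miR-199, so reads from several copies of a hairpin cannot be told apart.

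For miR-145 the 3p arm was the minor one, at 0.0757 to 0.418 of the 5p arm as group means. The ratio changed over time in severe hypoxia (1.69, limma adjusted p = 0.0026), moderate hypoxia (1.82, 0.0022) and control (1.60, 0.0045). In moderate hypoxia at 24 h it averaged 0.0757, against 0.148 in control, a log2 difference of -0.94 (SE 0.29, 0.0296) that ended without library 2 of moderate hypoxia (0.162) or library 3 of control (0.159). The interaction was called (0.0373), and 9 of 40 single libraries left out ended that call, with an adjusted p of up to 0.0851. These were libraries 1 and 3 of severe hypoxia at 4 h, libraries 1 and 2 of moderate hypoxia at 0 h, 2 and 3 at 12 h and 2 at 24 h, and libraries 2 and 3 of control at 12 h. In the neighbouring miR-214 hairpin the 3p over 5p ratio was higher in severe hypoxia than in control, by 0.69 at 12 h (0.0162) and 0.96 at 24 h (0.0249). That is the opposite direction to miR-199, and at 24 h it too compares 1 library with 1.

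**Figure D3:**
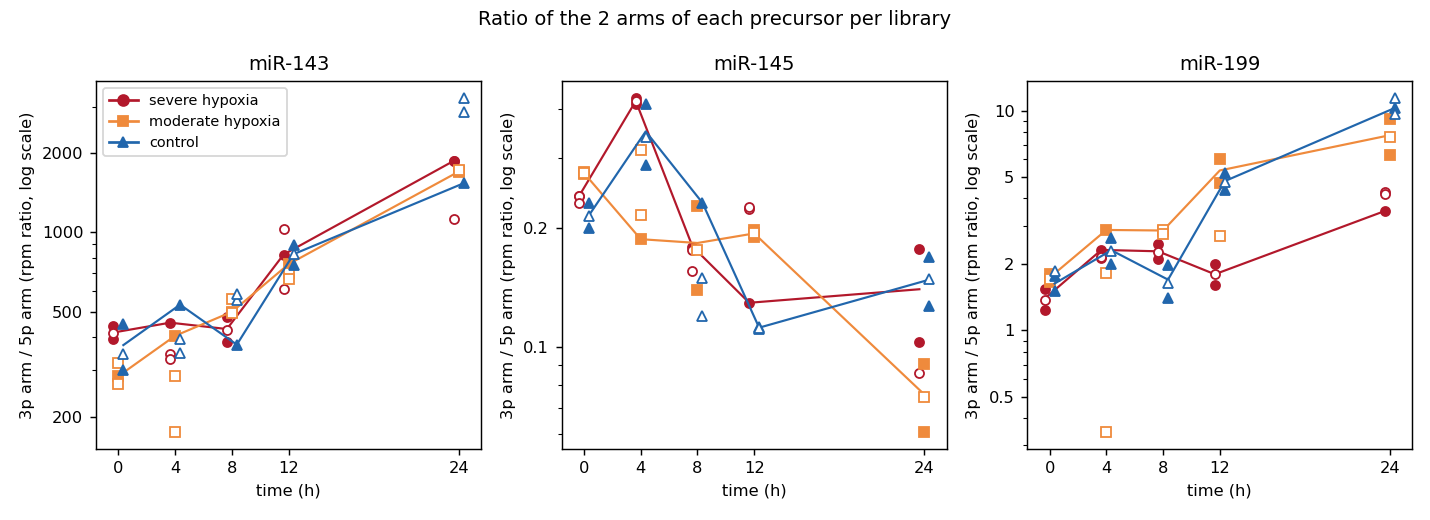
Ratio of the 3p arm to the 5p arm (rpm over rpm, log axis) of miR-143, miR-145 and miR-199 against time in h. Filled points are libraries with both arms measured, open points are libraries in which at least 1 arm is an averaged value, and lines join the means of the filled points. The miR-143 ratio ends highest at 24 h at all 3 oxygen levels, and the miR-199 ratio of severe hypoxia stays below the other groups at 12 and 24 h.

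The files were also read for whether the rows move together. Over the 15 group means of log2(rpm + 1), miR-143-5p, miR-145-3p and miR-199-5p moved together and miR-143-3p did not move with them. Pearson's r was 0.92 between miR-143-5p and miR-145-3p (Spearman's rho 0.89, permutation p = 1e-05 for r, the smallest that 100000 resamples can give, adjusted over 6 pairs 6e-05). It was 0.92 between miR-143-5p and miR-199-5p (rho 0.78, permutation p = 7e-05, adjusted 0.00014) and 0.88 between miR-145-3p and miR-199-5p (rho 0.80, permutation p = 6e-05, adjusted 0.00014). The 3p arm of miR-143 had r of 0.16 with its own 5p arm, 0.18 with miR-145-3p and -0.12 with miR-199-5p, with permutation p adjusted over 6 pairs of 0.674 each.

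As deposited, most pairs of miRNAs leaned the same way. Over all 11476 pairs of 152 miRNAs the median r was 0.46, with 5% of pairs above 0.80. Without the 24 h groups, 12 groups remained and the 3 correlations were 0.76, 0.61 and 0.68. Spearman's rho was then 0.78, 0.58 and 0.62. Over the same 12 groups r was 0.81, 0.71 and 0.75 rescaled and 0.75, 0.58 and 0.67 under the median of ratios. The rho fell to 0.59, 0.54 and 0.40 rescaled, and to 0.66, 0.21 and 0.19 under the median of ratios. Without 24 h, the rank order of miR-199-5p thus followed the other rows only weakly after scaling. Without the 2 groups farthest from the median of the first miRNA, which were moderate hypoxia and control at 24 h, the deposited r of the 3 pairs was 0.83, 0.78 and 0.78. Rescaled, the median over all pairs was 0.03 and the 3 correlations were 0.86, 0.87 and 0.79, and miR-143-3p then had r of -0.69 with miR-199-5p (permutation p = 0.00331, adjusted 0.00496) and -0.41 without the 24 h groups. For miR-143-3p with miR-199-5p, rho without the 24 h groups was -0.62 rescaled. Under the median of ratios r was -0.59 and rho -0.71 over the same 12 groups, and as deposited -0.27 and -0.19. Groups of the same hour and of the same oxygen level share conditions, so the 15 means are not independent draws.

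Within each oxygen level, over 5 hours and so given with no test, miR-143-5p and miR-145-3p had r of 0.94 in severe hypoxia, 0.97 in moderate hypoxia and 0.93 in control. From library to library within a group no such order was seen. In the 8 groups where miR-143-5p and miR-145-3p were measured in the same 2 libraries, the library that was higher in one was higher in the other in 4. For miR-143-5p with miR-199-5p it was 6 of 10 groups, for miR-145-3p with miR-199-5p 4 of 8, and for the arms of miR-143 3 of 4. For miR-143-3p it was 5 of 8 groups with miR-145-3p and 3 of 6 with miR-199-5p. These are counts of 4 to 10 groups with 2 libraries each, as deposited and not tested. They cannot show that the rows did not move together within groups.

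**Figure D4:**
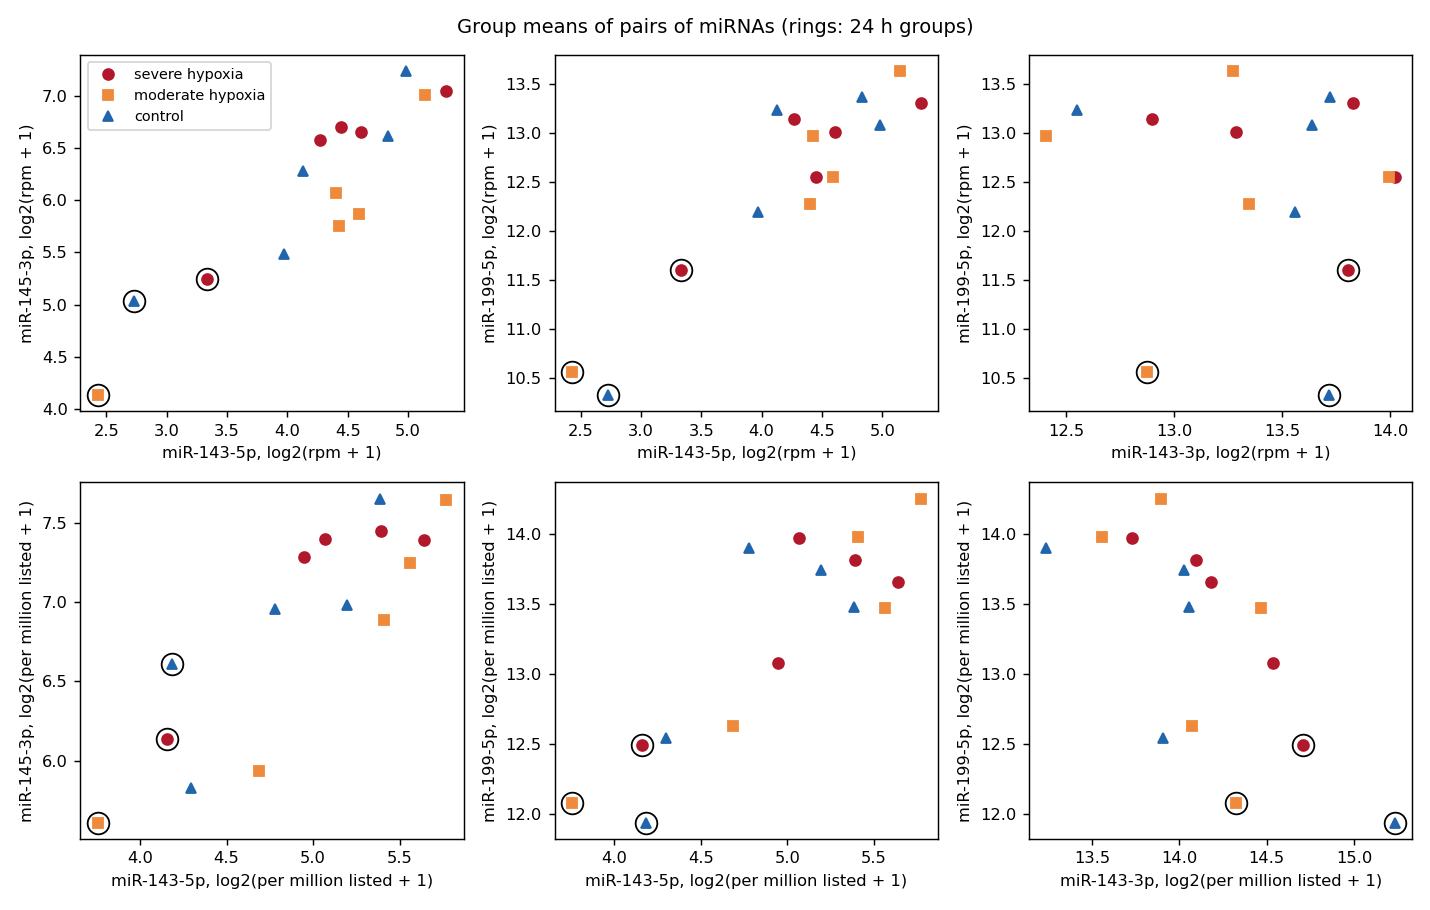
Group means of 3 pairs of miRNAs on the log2(rpm + 1) scale (top) and after rescaling to the listed total (bottom), with 15 groups each, coloured by oxygen level, and rings around the 24 h groups. miR-143-5p rises with miR-145-3p (r = 0.92) and with miR-199-5p (r = 0.92), and miR-143-3p does not rise with miR-199-5p (r = -0.12 as deposited, -0.69 rescaled).

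The miRNAs whose group means were most alike were looked up among 151 others of at least 10 rpm, as a description. For miR-143-5p they were miR-214-5p (r = 0.93), miR-199-5p and miR-145-3p. For miR-145-3p they were miR-100-5p (0.94), miR-143-5p and miR-1388-5p (0.92), and miR-199-5p stood at rank 7. For miR-199-5p they were miR-130b-5p (0.97), miR-19c-3p (0.94) and miR-338-3p (0.93). For miR-143-3p they were miR-722-5p (0.77), miR-724-5p (0.72) and miR-107b-3p (0.71), with its own 5p arm at rank 109 of 151. The partner arm of miR-199-5p, miR-199-3p, stood at rank 105 for it (0.37, and -0.26 rescaled). The partner arm of miR-145-3p, miR-145-5p, stood at rank 32 for it (0.71, and 0.44 rescaled).

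The stromal list of 8 rows adds the partner arms miR-145-5p (387 rpm on average) and miR-199-3p (17015 rpm). It also adds both arms of the miR-214 hairpin, miR-214-3p (230 rpm) and miR-214-5p (50.4 rpm). Over time 6 of 8 were called in severe hypoxia (63.3% of all miRNAs), 8 in moderate hypoxia (85%) and 7 in control (78.4%), and miR-199-3p was not called in severe hypoxia (range 1.06, limma adjusted p = 0.316) or control (0.73, 0.730). At 24 h miR-199-3p stood at 97.8% of its 0 h mean in severe hypoxia, 51.6% in moderate hypoxia and 82.0% in control. In the same order miR-145-5p stood at 82.8%, 47.9% and 60.4%, miR-214-3p at 106%, 28.6% and 46.1%, and miR-214-5p at 70.9%, 22.2% and 69.5%. Rescaled, miR-199-3p stood at 104%, 95.2% and 151% of 0 h, and miR-145-5p at 90.5%, 86.5% and 114%. The rescaled values were 112%, 53.2% and 88.0% for miR-214-3p and 75.7%, 39.5% and 135% for miR-214-5p. Against control, the list gave 1 call at 12 h and 2 at 24 h in severe hypoxia, all higher, with medians of 0.47 and 0.44 beside medians over all miRNAs of -0.23 and 0.45 and shares called of 32.4% and 33.8%. The second call at 24 h was miR-214-3p (1.26, SE 0.35, adjusted p = 0.0084). In moderate hypoxia it gave 2 higher at 0 h (median 0.72, all miRNAs 0.31 with 17.1% called), 4 lower at 4 h (-1.07, all -0.51 with 38.4% called) and 4 lower at 8 h (-0.59, all -0.56 with 34.4% called). It gave none at 12 h (0.41, all 0.19 with 3.21% called) and 1 lower at 24 h (-0.26, all -0.045 with 20.2% called).

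Markers of other cells moved over the same hours. The summed level of the hepatocyte list (both arms of miR-122, both above 0 in every library) was 6967 to 10408 rpm in severe hypoxia at 24 h, 18457 to 39383 rpm in moderate hypoxia and 11842 to 13003 rpm in control, against 3436 to 11391 rpm over all groups of 0 to 12 h. The endothelial list (4 arms of miR-126, 1 of them at 0 in 1 library) summed to 20006 to 21812 rpm in severe hypoxia, 6522 to 7531 rpm in moderate hypoxia and 5357 to 6916 rpm in control at 24 h, against 14577 to 49304 rpm at 0 to 12 h. At 24 h the endothelial sum, like miR-199-5p, was highest in severe hypoxia. This was not particular to endothelium. The mean sums of the stromal, leukocyte, epithelial, pancreas, muscle and fibrosis lists were also highest there. For the stromal list they were 30717 rpm in severe hypoxia, 20940 rpm in moderate hypoxia and 29285 rpm in control. The stromal ranges of severe hypoxia (26876 to 33208 rpm) and control (23649 to 34833 rpm) overlapped. The listed total was highest in severe hypoxia as well (533368 rpm, against 354710 rpm in moderate hypoxia and 333215 rpm in control). The hepatocyte and erythrocyte sums were not highest in severe hypoxia. After rescaling, the endothelial, leukocyte and pancreas sums stayed highest in severe hypoxia, and the epithelial, muscle and fibrosis sums did not. The most abundant endothelial row, miR-126a-3p, was listed at 11.9 rpm in all 3 libraries of moderate hypoxia at 24 h and averaged 18.9 ± 4.28 rpm in severe hypoxia at 8 h (SD, n = 2). In control at 24 h it averaged 3576 ± 332 rpm (SD, n = 2), so the endothelial sums of those hypoxic groups hold almost nothing of this row. The muscle list never exceeded 81.0 rpm in sum. At 12 h, where miR-145-3p was higher in severe hypoxia, the hepatocyte list summed to 6335 to 6700.1 rpm in severe hypoxia and 3436 to 3618 rpm in control, and the endothelial list to 36790 to 41769 rpm in severe hypoxia and 15316 to 16785 rpm in control. The mean epithelial sum was higher too (2820 rpm in severe hypoxia, 2050 rpm in control). The mean stromal sum was lower in severe hypoxia at 12 h (35072 rpm, against 39758 rpm in control). So were those of the leukocyte, erythrocyte, muscle, pancreas and fibrosis lists. The part of these lists in the results above was not tested.

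Of the endothelial list 4 of 4 rows were called higher in severe hypoxia than in control at 24 h (median 1.26), and of the hepatocyte list 1 of 2, where 33.8% of all miRNAs were called in either direction. The hepatocyte call was the scarcer arm miR-122-3p, while the mean sum of that list was lower in severe hypoxia (8692 rpm, against 12423 rpm in control). At 12 h 2 of 4 endothelial and 2 of 2 hepatocyte rows were called, all higher, where 32.4% of all were called. By the most abundant row of each list, severe hypoxia at 24 h was higher than control in miR-126a-3p of endothelium (0.97, limma adjusted p = 0.0341), miR-142a-5p of leukocytes (0.91, 0.0495) and miR-217-5p of pancreas (1.75, 0.0110). The rows miR-122-5p of hepatocytes (-0.56, 0.154), miR-144-3p of erythrocytes (-0.18, 0.751), miR-133a-3p of muscle (0.92, 0.0628), miR-200a-3p of epithelium (0.61, 0.149) and miR-30e-5p of the fibrosis list (0.33, 0.232) were not called. Of the leukocyte list 2 of 5 tested were called at 24 h, both higher, of the epithelial list 1 of 10, of the pancreas list 2 of 5, and of the erythrocyte list (2 tested) and the muscle list (2 tested) none. Of 35 miRNAs linked to liver fibrosis or stellate cells in mammals, such as miR-21, miR-29 and miR-221, 29 could be tested at 24 h and 12 were called, all higher in severe hypoxia (median 0.64, all miRNAs 0.45). Of all miRNAs 33.8% were called there, 59 of the 72 higher. At 12 h 3 of 29 were higher and 7 lower, beside 32.4% of all called. In moderate hypoxia at 24 h 5 of 29 were higher and 4 lower, beside 20.2% of all called.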

How the data were processed

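Small RNA of 15 to 35 nt from liver was sequenced per library, per the labels' protocols. The deposited files list 266 miRNAs per library with 1 value each, taken as rpm from the values, since no source used here gives the unit, denominator, trimming, alignment or reference. They are not counts, so no count model was run. Values equal to the mean of the other 2 of their group were set to missing, 1 of 3 identical values was kept, and a miRNA at 0 in a whole group was missing there. This left 6940 measured values. Of the 266, the 228 averaging 1 rpm or more were fitted on log2(rpm + 1) with 15 groups and all 45 libraries, by a separate linear fit per miRNA and the variance moderation of limma 3.58.1 with trend (R 4.3.3). Two-sided tests were adjusted within each comparison. A fold change on this scale understates the change of low miRNAs. Arm ratios were log2((3p + 1)/(5p + 1)) over the 73 hairpins with both arms averaging 1 rpm or more. Of these, 48 to 67 could be tested in a given comparison. The fit was checked on simulated data. Correlations used 100000 resamples. Named miRNAs are the 4 rows, the 3 most alike to each over group means, the stromal list and the most abundant row of each other list. The rows, lists and tests were chosen with earlier results of these data known. Alternatives were 2 other scalings, other pseudocounts and filters, all 3 deposited values, fits with only the groups compared, a replicate block, group means as observations, and leaving out each library or hour. The arm ratios of miR-145 and miR-199 and the pairs without 24 h were added after seeing the data. No value was left unmapped to a library.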

Additional observations from a re-analysis of the deposited data

Results flagged for a closer look

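The effect of oxygen depended on the hour, by the interaction test of limma, in all 4 rows, with adjusted p of 0.0110 for miR-143-3p, 0.00301 for miR-143-5p, 0.00145 for miR-145-3p and 0.000198 for miR-199-5p. The same test was passed by 87.5% of all miRNAs, and after rescaling to the listed total miR-145-3p alone of the 4 passed it (0.0024). The interaction of the arm ratio was called for miR-199 (0.0120) and miR-145 (0.0373), where 41.7% of hairpins were called.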

How the results depend on the processing

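The number of the 4 rows called moved with the scaling in most comparisons. Rescaled to the listed total, moderate hypoxia against control gave 2 at 24 h and 0 at 4 h, 0 at 8 h and 0 as a mean, severe hypoxia against control 0 at 24 h, severe against moderate hypoxia 0 at 0, 4, 8 and 24 h and 1 as a mean, and the interaction 1. Scaled by the median of ratios, moderate hypoxia against control gave 0 at 0 h, 1 at 4 h, 0 at 8 h and 0 as a mean, severe hypoxia against control 3 at 12 h and 2 as a mean, severe against moderate hypoxia 0 at 0, 4, 8 and 24 h and 1 as a mean, and the interaction 2. These log2 differences turned their direction when rescaled to the listed total. For severe hypoxia against control they were 0.072 (miR-143-3p), 0.19 (miR-143-5p) and 0.070 (miR-199-5p) at 8 h, -0.53 (miR-143-3p), -0.023 (miR-143-5p) and -0.47 (miR-145-3p) at 24 h, and 0.074 (miR-199-5p) at 0 h. For moderate hypoxia against control they were 0.45 (miR-143-3p), 0.36 (miR-143-5p) and 0.26 (miR-145-3p) at 8 h, 0.026 (miR-143-5p) and 0.50 (miR-199-5p) at 4 h, and 0.16 (miR-199-5p) as a mean. Under the median of ratios, those turned in severe hypoxia were 0.063 (miR-143-5p) at 8 h and -0.34 (miR-143-3p) and -0.26 (miR-145-3p) at 24 h. In moderate hypoxia they were 0.21 (miR-143-3p), 0.11 (miR-143-5p) and 0.0099 (miR-145-3p) at 8 h, 0.43 at 4 h and 0.059 as a mean (both miR-199-5p). The r of miR-143-3p with miR-143-5p, miR-145-3p and miR-199-5p was -0.37, -0.20 and -0.69 rescaled to the listed total, and -0.46, -0.28 and -0.76 under the median of ratios. The cause was not tested.

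With all 3 deposited values in the fit, averaged ones included, the spread shrinks by construction. Moderate hypoxia against control then gave 4 rows at 0 h, 3 at 8 h, 2 at 12 h, 2 at 24 h and 2 as a mean. Severe hypoxia against control gave 1 at 8 h, 3 at 12 h, 2 at 24 h and 3 as a mean, and severe against moderate hypoxia 3 at 0 h, 2 at 8 h and 4 as a mean. The mean arm ratio difference of miR-143 in moderate hypoxia against control then passed at -0.32 (adjusted p = 0.011), while those of miR-143 in severe hypoxia (-0.14, 0.25) and of miR-199 in moderate hypoxia (-0.15, 0.45) turned their direction without passing.

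With fewer groups in the fit (only the groups compared), moderate hypoxia against control gave 0 at 0 h, 1 at 4 h, 0 at 24 h and 0 as a mean, and severe against moderate hypoxia 0 at 0 h, 1 at 4 h and 0 at 12 h. Group means as observations gave 0 in each of the 3 means. A pseudocount of 5 rpm, or a mean of at least 10 rpm, gave 0 for moderate hypoxia against control at 24 h. Without an hour, the rows called as a mean were, for severe hypoxia against control, 2 without 4 h, 2 without 8 h, 0 without 12 h and 0 without 24 h. For moderate hypoxia against control they were 2 without 0 h, 0 without 4 h, 0 without 8 h and 0 without 24 h, and for severe against moderate hypoxia 4 without 0 h and 1 without 24 h. The mean difference of miR-143-5p in moderate hypoxia turned to -0.17 without 0 h and -0.0667 without 12 h, and that of miR-199-5p to 0.22 without 8 h.

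Leaving out single libraries, the rows called ranged over 0 to 1 at 12 h and 0 to 2 as a mean in severe hypoxia against control. In moderate hypoxia against control they ranged over 0 to 2 at 0 h, 1 to 2 at 4 h, 0 to 1 at 24 h and 0 to 2 as a mean. In severe against moderate hypoxia they ranged over 0 to 2 at 0 h, 1 to 3 at 4 h, 0 to 1 at 8 h, 0 to 1 at 12 h and 1 to 4 at 24 h. Differences that took both signs were those of miR-143-5p at 0 h (-0.36 to 0.65), miR-143-3p at 4 h (-0.062 to 0.44) and 24 h (-0.37 to 0.53), miR-145-3p at 8 h (-0.36 to 0.44) and 24 h (-0.030 to 0.45) and miR-199-5p at 0 h (-0.28 to 0.10) in severe hypoxia, and the means of miR-143-5p (-0.031 to 0.17) and miR-199-5p (-0.11 to 0.016) in moderate hypoxia, all uncalled. The mean miR-145 arm ratio difference in severe hypoxia ran from -0.048 to 0.11.

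With the replicate block, severe against moderate hypoxia gave 0 rows at 0 h, miR-145-3p in severe hypoxia at 8 h was -0.070, and the mean miR-145 arm ratio difference was -0.19. On average, same-numbered libraries did not deviate together (mean r of -0.00038, -0.00068 and -0.0081 for numbers 1, 2 and 3, over 105 pairs of groups each). Single pairs ran from -0.27 to 0.29. Averaged values were kept here and most pairs cross oxygen levels, so this check cannot show what same-numbered libraries share. Over 5 groups of 1 oxygen level some of the weak r of miR-143-3p took the other sign. They were -0.022 with miR-143-5p and -0.091 with miR-145-3p in control, -0.12 with miR-145-3p in severe hypoxia, and 0.13 with miR-199-5p in moderate hypoxia. With miR-199-5p, r kept its sign in severe hypoxia (-0.43) and control (-0.37). Rescaled, this pair had -0.95 in severe hypoxia, -0.58 in moderate hypoxia and -0.81 in control. As deposited and without the 2 groups farthest from the median, it had 0.073 over all levels. Depth limits miR-143-5p most, and with 2 measured values in most groups a miss does not show that groups were equal.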
